A study of Mus musculus with 9 samples.

Results

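The genes described here carry out cholesterol synthesis, uptake and trafficking, and 31 gene symbols of the 28965 in the deposited table were followed. They were chosen by name, as the enzymes of the mevalonate and sterol pathway in their order of action, followed by genes of cholesterol uptake, transport inside the cell and ester turnover. Of the 31, 19 encode enzymes on the route from acetyl-CoA units to cholesterol and 12 act on side branches or on finished cholesterol. RNA came from wild-type 3T3-L1 cells, an established mouse line of adipocyte precursors of fibroblast type, taken 24 h after the start of adipogenic differentiation. The OA_T0 group (3 libraries) received 100 µM oleic acid bound to bovine serum albumin together with 5 µM T0901317, a synthetic agonist of the liver X receptors (LXR). The OA group (3 libraries) received the same albumin-bound oleic acid alone, and the MDI group (3 libraries) the albumin vehicle. Every group, MDI included, also received the differentiation cocktail, made of dexamethasone at 0.1 µg/mL, insulin at 0.1 µg/mL and isobutylmethylxanthine at 30 µg/mL. No group received T0901317 without oleic acid, so an effect of the agonist alone cannot be told apart from its effect on cells given oleic acid. All cells are of a single line, and the labels leave unsaid whether replicates came from separate cultures; p-values then cover the spread between these libraries, which may be technical.

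Cholesterol is built in the endoplasmic reticulum from acetyl-CoA through mevalonate, farnesyl pyrophosphate, squalene and lanosterol. The genes of this route are classical targets of SREBP2, a membrane-bound transcription factor that is released when sterols in that membrane are scarce and held back by INSIG proteins when they are plentiful. LXRs respond to oxidised sterols and turn on genes that move cholesterol out of the cell. In fat cells most cholesterol taken up or made is unesterified and sits in membranes and at the surface of lipid droplets.

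The libraries are named by group and replicate number (OA_T0 1 to MDI 3). Their estimated depths were 17.98 to 59.9 M fragments, and 3 fragments corresponded to 1.35 to 4.62 normalised counts; this floor covers counting error only. Values are the authors' normalised counts, given as means ± SD with n = 3 libraries a group, and are not corrected for gene length. All 10 fibroblast and preadipocyte markers examined were present, with summed values of 288618 to 335594 normalised counts in OA_T0, 327673 to 361909 in OA and 310773 to 336247 in MDI. Of 7 adipocyte markers found, 2 averaged at least 10 normalised counts, Fabp4 and Cd36, with summed values of the 7 at 629 to 788 in OA_T0, 2106 to 2785 in OA and 320 to 481 in MDI. Of 5 macrophage markers, 2 averaged at least 10 and Adgre1 was listed at 0 throughout, with sums of 55.5 to 79.8 in OA_T0, 28.9 to 58.9 in OA and 34.6 to 46.2 in MDI. The endothelial and epithelial markers stayed at 13.1 normalised counts in sum or below. The part of these markers in the results was not tested. A ribosomal RNA gene, CT010467.1, chosen after its values were seen, took 3.06% of the values in OA_T0 3, 0.649% in OA 1 and 4.40% to 5.96% elsewhere, and counts are therefore also given without both of these libraries.

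Of the 31 genes, 30 averaged at least 10 normalised counts over the 9 libraries and were tested. Cyp27a1, which makes an oxidised sterol in mitochondria, was listed at 0 in all 9 libraries, so any level lay below the floor of 3 fragments. A gene counted as higher or lower when its adjusted p from limma, computed over all 15002 tested genes, was below 0.05. Fold changes are on the scale of log2(normalised count + 1), written with the standard error (SE) of the fit.

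**Figure D1:**
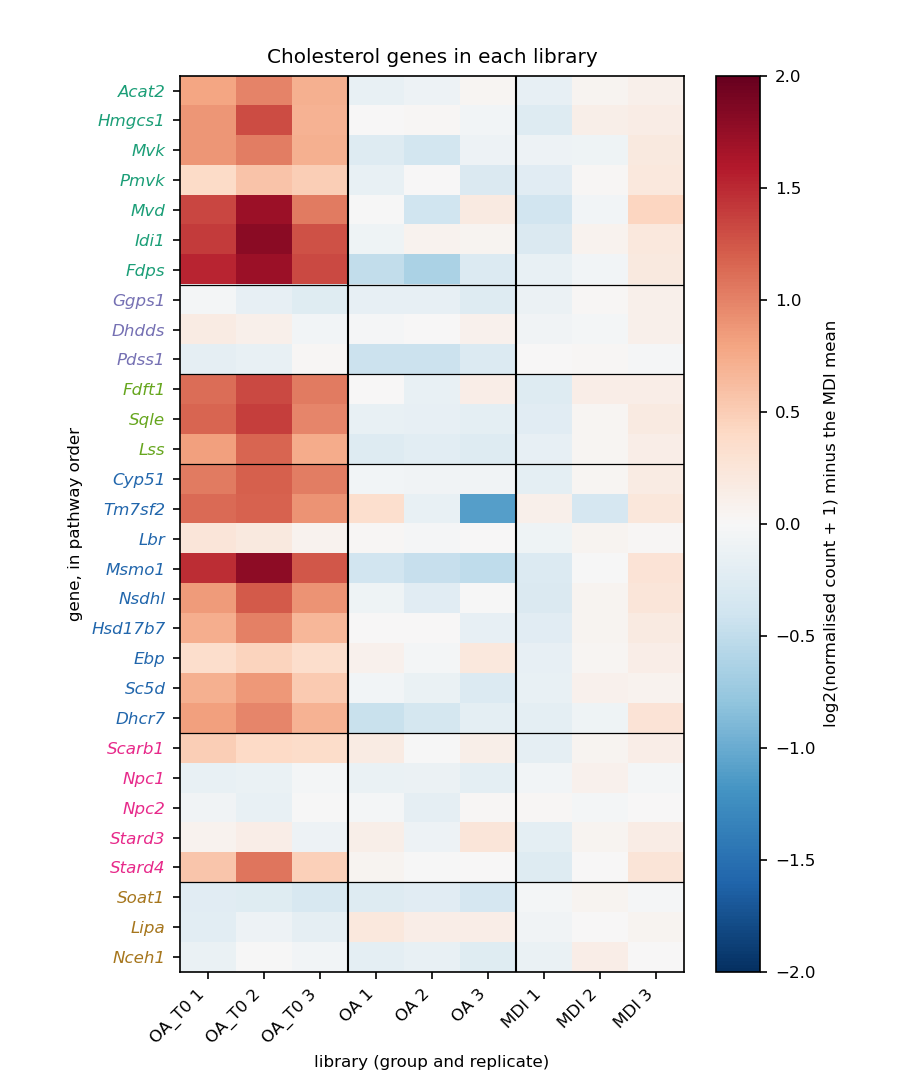
Each cell shows log2(normalised count + 1) of a gene (row, in pathway order, coloured by role) in a library (column), minus the mean of the 3 MDI libraries. The OA_T0 columns are red for most enzymes from Acat2 to Dhcr7, with pale rows at Ggps1, Dhdds, Pdss1, Lbr and Ebp. The OA columns are mostly close to white or pale blue, with Tm7sf2 a stronger blue in OA 3.

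OA_T0 set against OA addresses the response to the LXR agonist on top of oleic acid. Transcripts of cholesterol synthesis rose along nearly the whole route: 18 of the 19 enzymes were higher and 0 were lower, with a median log2 fold change of 1.15 (2.22-fold), and 12 of them were higher by at least 2-fold. Over all tested genes 8.27% were higher and 6.84% lower (15.1% in either direction), and the median log2 fold change was -0.00. Of all 15002 tested genes, 75 were higher by at least 2-fold. The 3 OA_T0 libraries lay above the 3 OA libraries for all 19 enzymes, including the enzyme that did not pass, Lbr, whereas 17.1% of all tested genes were higher without overlap. In a ranking of all 15002 log2 fold changes, 17 of the 19 enzymes stood above the 95th percentile and 15 above the 99th, with Fdps at rank 2 and Msmo1 at rank 3 from the top. Of the other 11 tested members, 3 were higher, 1 was lower and 7 did not pass, with a median log2 fold change of 0.05. Together 21 of 30 were higher and 1 was lower. Leaving out each library in turn, the higher count lay between 18 and 21, without both OA 1 and OA_T0 3 it was 19, and the lower count stayed at 1.

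**Figure D2:**
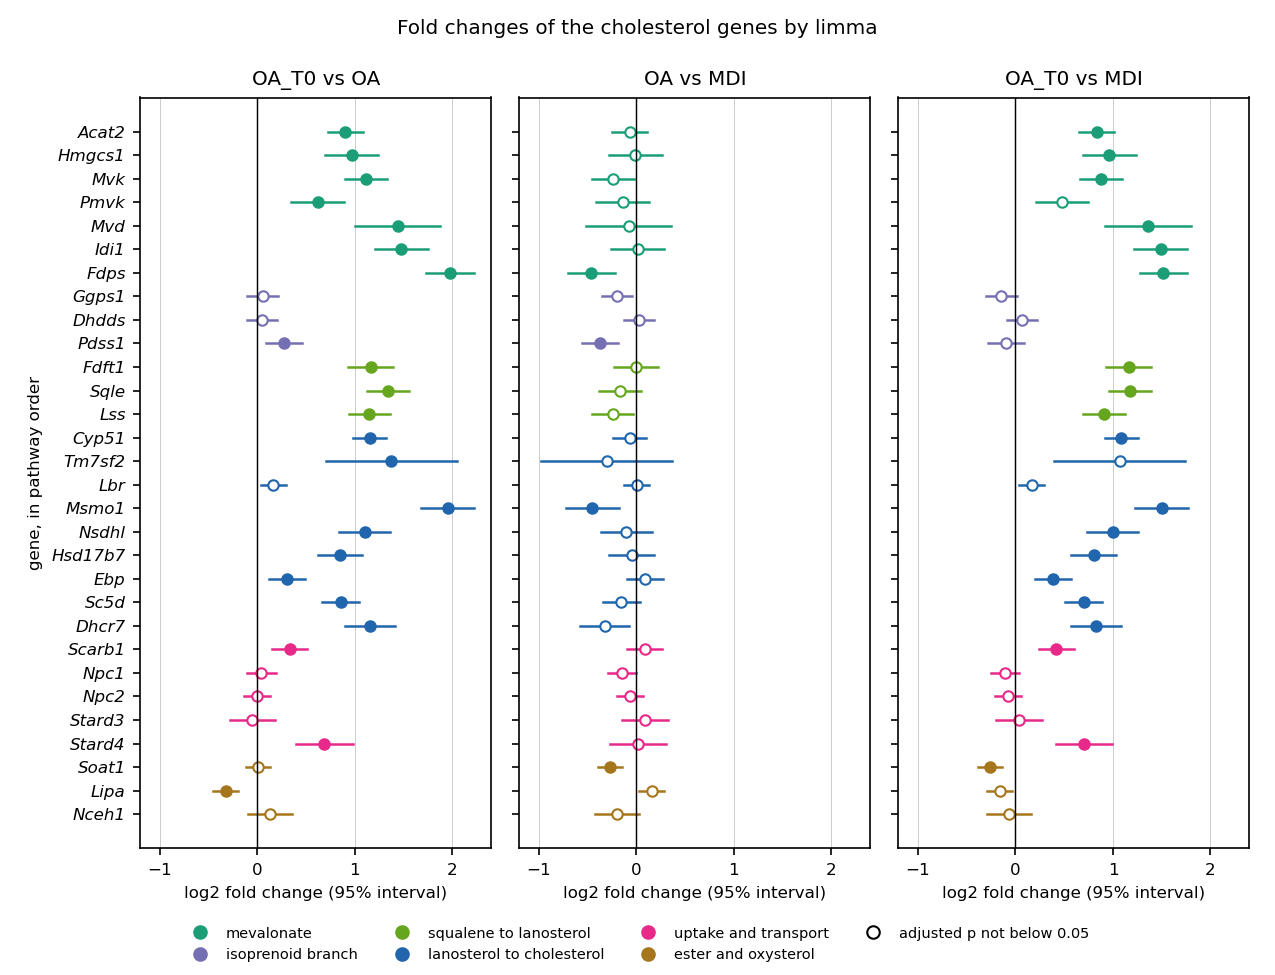
Log2 fold changes (points) with 95% intervals (lines) of the 30 tested genes in OA_T0 vs OA, OA vs MDI and OA_T0 vs MDI, in pathway order and coloured by role. Filled points had an adjusted p below 0.05; the enzymes to cholesterol lie to the right of 0 in the first and last panels, while in OA vs MDI only Fdps, Pdss1, Msmo1 and Soat1 are filled, all to the left of 0.

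All 7 enzymes of the mevalonate segment were higher in OA_T0 than in OA. Acat2, the cytosolic thiolase that joins acetyl-CoA units, stood at 3889, 4491 and 3699 normalised counts in OA_T0, against 2037, 2089 and 2316 in OA. The lowest OA_T0 library exceeded the highest OA library by a wide margin (log2 fold change 0.90, SE 0.08, adjusted p = 3.84e-06). Hmgcs1, which makes hydroxymethylglutaryl-CoA in the cytosol, had 4011, 5417 and 3522 in OA_T0, against 2197, 2214 and 2092 in OA. Its OA libraries were tightly grouped and OA_T0 2 was the highest of all (log2 fold change 0.97, SE 0.13, adjusted p = 1.28e-04). Mvk and Pmvk, the kinases that phosphorylate mevalonate in turn, averaged 1241 ± 132 and 311 ± 20.1 in OA_T0, against 573 ± 54.4 and 202 ± 20.8 in OA. These correspond to log2 fold changes of 1.11 (adjusted p = 3.41e-06) and 0.62 (adjusted p = 0.00413), Pmvk having the smallest rise of the segment. Mvd, the decarboxylase that yields isopentenyl pyrophosphate, averaged 414 ± 95.9 in OA_T0 and 152 ± 29.9 in OA (log2 fold change 1.44, adjusted p = 2.65e-04). Idi1, which isomerises that product, had 2164, 2862 and 1989 in OA_T0, against 775, 864 and 853 in OA, a 2.78-fold rise (adjusted p = 2.13e-06). Fdps, which joins isoprene units into farnesyl pyrophosphate, had 1792, 2045 and 1551 in OA_T0, against 444, 403 and 518 in OA. It showed the largest rise of the 30 genes, 3.94-fold (log2 fold change 1.98, SE 0.11, adjusted p = 3.31e-08).

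Farnesyl pyrophosphate also feeds branches that leave the sterol route, and the 3 genes followed there moved little. Ggps1, which makes geranylgeranyl pyrophosphate for protein prenylation, had 1321, 1207 and 1145 in OA_T0, against 1206, 1203 and 1125 in OA. The groups overlapped, and the 95% interval of the log2 fold change ran from -0.10 to 0.21 (adjusted p = 0.669). Dhdds, a subunit of the enzyme that builds dolichol chains, averaged 1401 ± 106 in OA_T0 and 1354 ± 58.6 in OA, with an interval from -0.11 to 0.20 (adjusted p = 0.708). Pdss1, which makes the side chain of coenzyme Q, had 458, 469.5 and 530.0 in OA_T0, against 386, 386 and 429.5 in OA, and passed as higher (0.28 on the log2 scale, SE 0.09, adjusted p = 0.0408). Pdss1 no longer passed on leaving out MDI 1 (adjusted p = 0.0532), MDI 2 (0.0623), OA 1 (0.148), OA 2 (0.127), OA_T0 1 (0.0697) or OA_T0 3 (0.155), and it also ended with the replicate block (0.0531), quantile normalisation (0.0538), no filter on low values (0.0617), equal totals (0.0741) or a fit of only the 2 groups (0.0749). It was also lost without both OA 1 and OA_T0 3 (0.361).

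The 3 enzymes from farnesyl pyrophosphate to lanosterol rose by similar amounts. Fdft1, squalene synthase and the committed step to sterols, had 2071, 2375 and 1959.7 in OA_T0, against 957, 858 and 1044 in OA (log2 fold change 1.16, adjusted p = 3.75e-06). Sqle, squalene monooxygenase and a flux-controlling step, had 2877, 3357 and 2529.9 in OA_T0, against 1154, 1151 and 1129 in OA (log2 fold change 1.34, SE 0.10, adjusted p = 5.22e-07). Lss, which folds oxidosqualene into lanosterol, averaged 1625 ± 256 in OA_T0 and 726 ± 12.3 in OA (log2 fold change 1.15, adjusted p = 2.13e-06). The OA libraries of Sqle and Lss lay within a few percent of each other, and the spread of both genes was wider in OA_T0.

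Of the 9 enzymes that turn lanosterol into cholesterol, 8 were higher in OA_T0 than in OA. Cyp51, which removes a methyl group from lanosterol, had 4581, 5125 and 4564 in OA_T0, against 2151, 2125 and 2126 in OA (log2 fold change 1.15, SE 0.08, adjusted p = 1.76e-07). The next reduction can be done by Tm7sf2 or by Lbr, and Tm7sf2 alone passed. Tm7sf2 had 74.5, 76.8 and 63.2 in OA_T0, against 42.5, 30.1 and 15.1 in OA (log2 fold change 1.37, SE 0.32, adjusted p = 0.00882). Its call was lost when genes of low value were not filtered out (adjusted p = 0.0516). Lbr, which also anchors chromatin at the nuclear lamina, had 2552, 2464 and 2275 in OA_T0, against 2195, 2133 and 2174 in OA. Lbr did not pass (log2 fold change 0.16, 95% interval 0.03 to 0.29, adjusted p = 0.0837) and passed without OA_T0 3 (0.0486). Per kilobase of longest annotated transcript, the mean level in OA_T0 was 23.2 normalised counts for Tm7sf2 and 692 for Lbr.

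Msmo1, which begins the removal of the next methyl groups, had 3283, 4088 and 2804 in OA_T0, against 907, 860.0 and 831 in OA. Its 3.87-fold rise was the second largest of the 30 (log2 fold change 1.95, SE 0.13, adjusted p = 1.14e-07). Nsdhl and Hsd17b7, which complete that demethylation, averaged 1451 ± 214 and 1076 ± 136 in OA_T0, against 673 ± 53.0 and 594 ± 40.4 in OA. Their log2 fold changes were 1.10 (adjusted p = 2.70e-05) and 0.85 (adjusted p = 8.36e-05). Sc5d, a sterol desaturase, averaged 2009 ± 232 in OA_T0 and 1108 ± 85.3 in OA (log2 fold change 0.85, adjusted p = 1.46e-05). Dhcr7, a terminal reductase, averaged 712 ± 73.0 in OA_T0 and 319 ± 28.6 in OA (log2 fold change 1.15, adjusted p = 1.39e-05). Ebp, which shifts a double bond in the sterol ring, rose least among the enzymes that passed: it had 951, 1024 and 958 in OA_T0, against 791, 729.9 and 866 in OA (log2 fold change 0.30, SE 0.09, adjusted p = 0.0302). Ebp no longer passed on leaving out OA 1 (adjusted p = 0.0931), OA 2 (0.127), OA_T0 1 (0.0774) or OA_T0 2 (0.0755), without both OA 1 and OA_T0 3 (0.119), and with no filter on low values (0.0819).

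**Figure D3:**
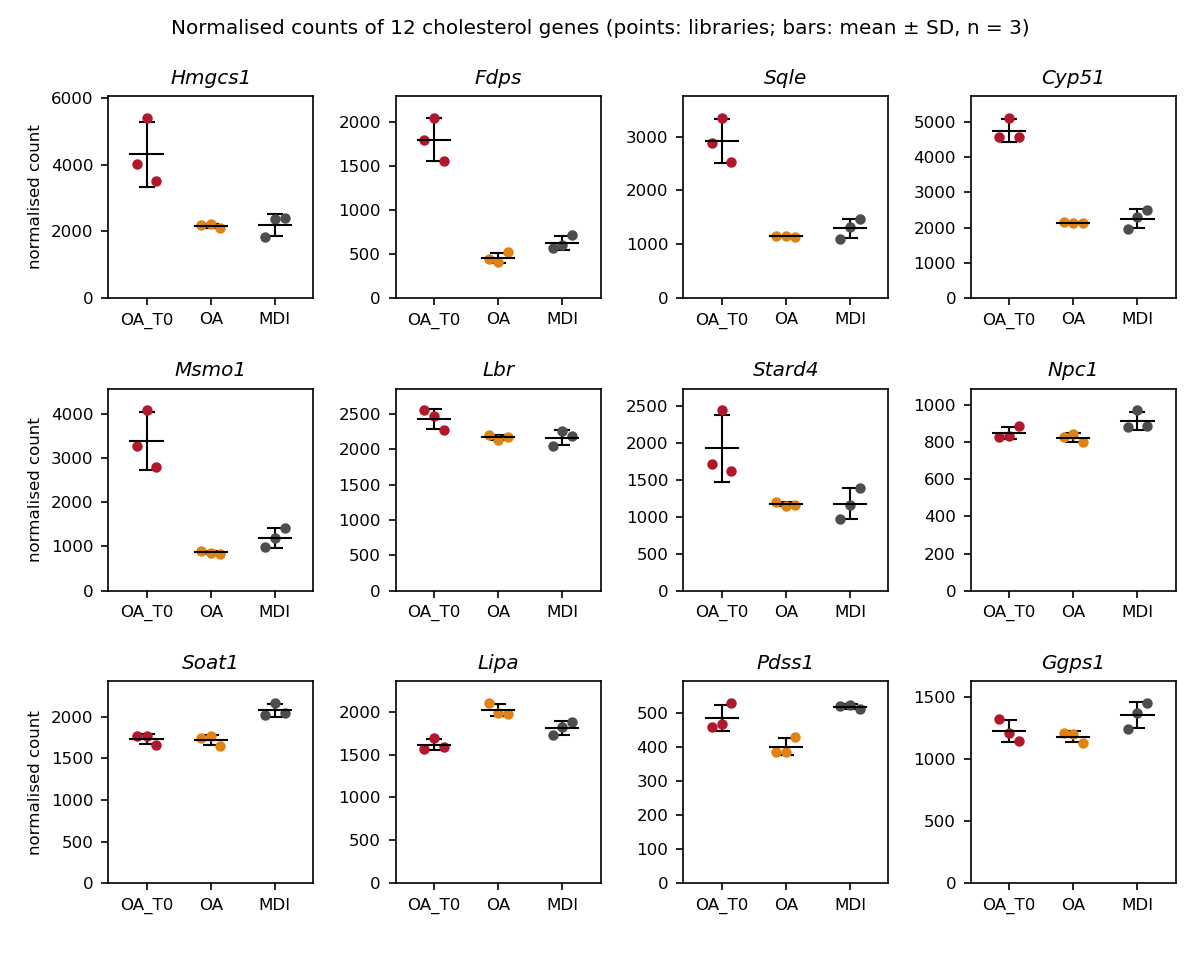
Normalised counts (vertical axes, from 0) of 12 of the genes in the OA_T0, OA and MDI libraries; points are libraries and the bars are mean ± SD, n = 3. Hmgcs1, Fdps, Sqle, Cyp51, Msmo1 and Stard4 stand highest in OA_T0, Soat1 stands highest in MDI, and Lipa highest and Pdss1 lowest in OA. Lbr, Npc1 and Ggps1 differ less between groups and passed in no comparison. Even so, the OA_T0 libraries of Lbr lie above the others, and the OA libraries of Npc1 and Ggps1 lie below those of MDI.

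Of the 5 genes of uptake and transport, 2 were higher in OA_T0 than in OA and 3 did not pass. Stard4, a soluble carrier that moves cholesterol between membranes, had 1707, 2437 and 1621 in OA_T0, against 1204, 1149 and 1162 in OA, and was higher (log2 fold change 0.69, SE 0.14, adjusted p = 0.00318). Stard3, a carrier anchored on late endosomes, averaged 469 ± 37.5 in OA_T0 and 486 ± 55.7 in OA, with overlapping libraries and a 95% interval of the log2 fold change from -0.28 to 0.19 (adjusted p = 0.805). Scarb1, a surface receptor that exchanges cholesterol with high-density lipoprotein, averaged 1225 ± 58.7 in OA_T0 and 973 ± 58.5 in OA (log2 fold change 0.33, SE 0.08, adjusted p = 0.0144). Scarb1 did not pass without OA 2 (adjusted p = 0.0657), without OA_T0 1 (0.0844) or with no filter on low values (0.0512). Npc1 and Npc2, which hand cholesterol from the lysosome lumen to its membrane and onward, showed little difference. Npc1 averaged 851 ± 33.1 in OA_T0 and 826 ± 22.9 in OA (95% interval -0.10 to 0.19, adjusted p = 0.717), and Npc2 averaged 6903 ± 363 in OA_T0 and 6935 ± 492 in OA (95% interval -0.14 to 0.13, adjusted p = 0.964).

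On the ester side, 1 of the 3 tested genes changed. Lipa, the lysosomal acid lipase that frees cholesterol from lipoprotein esters, had 1566, 1691 and 1589 in OA_T0, against 2103, 1982 and 1980.0 in OA. It was the sole member lower in OA_T0 (log2 fold change -0.32, SE 0.06, adjusted p = 0.00219), and the groups did not overlap. Soat1, which esterifies cholesterol for storage, averaged 1732 ± 61.3 in OA_T0 and 1722 ± 64.4 in OA (95% interval -0.12 to 0.13, adjusted p = 0.943). Nceh1, a neutral ester hydrolase, averaged 248 ± 11.3 in OA_T0 and 226 ± 8.52 in OA, without overlap but with adjusted p = 0.432.

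The starts of the genes that moved together can be read beside these values. RefSeq (build GRCm38.p6) gave a window of 250 bases before to 50 after the annotated start for 25 of the 31 genes. The windows of 4 genes are shown: Hmgcs1 and Stard3 because they alone held a match to TCACNCCAC, a form of the sterol regulatory element bound by SREBPs, and Msmo1 and Cyp51, chosen after their values were seen, as strong risers without that match. Capitals mark TCACNCCAC and CCAAT, the box bound by the trimeric factor NF-Y, on either strand, so that ATTGG is a CCAAT on the opposite strand. The windows are chr13:119690101-119690400 on the plus strand for Hmgcs1, chr8:64733529-64733828 on the minus strand for Msmo1, chr5:4104648-4104947 on the minus strand for Cyp51 and chr11:98358118-98358417 on the plus strand for Stard3, each written along its gene's own strand.
Hmgcs1: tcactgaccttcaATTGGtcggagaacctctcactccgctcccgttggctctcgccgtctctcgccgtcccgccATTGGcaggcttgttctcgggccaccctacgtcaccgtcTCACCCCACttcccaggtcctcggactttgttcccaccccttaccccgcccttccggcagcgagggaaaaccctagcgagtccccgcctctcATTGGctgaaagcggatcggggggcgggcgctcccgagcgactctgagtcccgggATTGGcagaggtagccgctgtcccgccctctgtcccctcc
Msmo1: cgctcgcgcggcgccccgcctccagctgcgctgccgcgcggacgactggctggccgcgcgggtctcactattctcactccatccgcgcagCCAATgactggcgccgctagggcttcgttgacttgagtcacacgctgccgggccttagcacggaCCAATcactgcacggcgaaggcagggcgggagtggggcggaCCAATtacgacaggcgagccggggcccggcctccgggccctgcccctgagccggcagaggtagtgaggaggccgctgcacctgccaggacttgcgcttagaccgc
Cyp51: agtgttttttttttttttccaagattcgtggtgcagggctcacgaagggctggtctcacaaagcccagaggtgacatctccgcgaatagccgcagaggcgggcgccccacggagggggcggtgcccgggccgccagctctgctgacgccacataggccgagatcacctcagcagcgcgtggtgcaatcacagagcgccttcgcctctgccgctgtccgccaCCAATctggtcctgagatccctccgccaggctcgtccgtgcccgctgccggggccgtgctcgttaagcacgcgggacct
Stard3: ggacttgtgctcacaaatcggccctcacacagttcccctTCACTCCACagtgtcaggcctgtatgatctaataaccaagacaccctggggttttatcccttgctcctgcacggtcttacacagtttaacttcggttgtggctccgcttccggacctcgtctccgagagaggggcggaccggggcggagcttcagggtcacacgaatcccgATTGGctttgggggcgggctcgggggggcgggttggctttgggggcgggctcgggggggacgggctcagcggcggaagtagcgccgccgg

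The TCACNCCAC match begins 137 bases before the start of Hmgcs1, which rose, and 211 bases before the start of Stard3, whose groups overlapped. On both strands this motif occurred in 2 of 25 members (8.0%) and in 1.44% of the 27025 genes with a window. CCAAT occurred in 23 of 25 members (92.0%), against 41.1% of all genes and 42.3% of the 17492 protein-coding genes. It was present 4 times in the Hmgcs1 window, 3 times in that of Msmo1 and once in those of Cyp51 and Stard3. GGGCGG, the box bound by Sp1, occurred in 21 of 25 members (84.0%), against 38.2% of all genes and 49.2% of protein-coding genes. CCAAT was also present in the windows of Ggps1, Dhdds, Lbr, Npc2, Stard3, Soat1 and Nceh1, whose values did not pass in OA_T0 vs OA. These are letter matches and say nothing of whether a factor bound. Other forms of the sterol regulatory element were not marked, so a window without TCACNCCAC may still hold one.

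OA set against MDI addresses the response to oleic acid on top of the cocktail. It shares the OA libraries with OA_T0 vs OA and is not independent of it. Of the 30 tested cholesterol genes, 22 had a log2 fold change below 0, against 7013 of all 15002 tested genes. By adjusted p, 0 were higher and 4 were lower, Fdps, Pdss1, Msmo1 and Soat1. Over all tested genes 3.43% were higher and 3.36% lower (6.79% in either direction). At an unadjusted p below 0.05 limma gave 1 higher and 9 lower, against 11.1% and 10.1% of all tested genes. Without overlap between libraries, 1 was higher and 8 were lower, against 13.4% and 12.6% of all tested genes. Among the 19 enzymes the log2 fold changes ran from -0.46 to 0.08 with a median of -0.10, against 0.01 over all tested genes, and 16 of the 19 were below 0. The lower count of 4 became 0 without MDI 2, 1 without OA 1 or OA 2, 2 without MDI 3, 3 without both OA 1 and OA_T0 3, and 2 with no filter on low values.

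Fdps had 444, 403 and 518 normalised counts in OA, against 563, 602 and 714 in MDI. The groups did not overlap and Fdps was lower in OA (-0.46 on the log2 scale, SE 0.11, adjusted p = 0.0251). It no longer passed on leaving out MDI 2 (adjusted p = 0.0813), MDI 3 (0.0737), OA 1 (0.0825) or OA 2 (0.0929), and with no filter (0.118). Msmo1 had 907, 860.0 and 831 in OA, against 982, 1183 and 1429 in MDI (log2 fold change -0.45, SE 0.13, adjusted p = 0.0464). It no longer passed on leaving out MDI 2 (adjusted p = 0.151), MDI 3 (0.134), OA 1 (0.0874), OA 2 (0.0994), OA 3 (0.128) or OA_T0 1 (0.0711), and with the replicate block (0.0597), robust variances (0.148) or no filter (0.197). Pdss1 had 386, 386 and 429.5 in OA, against 521, 525 and 511 in MDI, where its 3 libraries were nearly equal (log2 fold change -0.38, SE 0.09, adjusted p = 0.0164). It did not pass without MDI 1 (adjusted p = 0.0585), MDI 2 (0.0823), OA 1 (0.0726) or OA 2 (0.0564), or without both OA 1 and OA_T0 3 (0.0510). Soat1 had 1745, 1771 and 1649 in OA, against 2023, 2165 and 2044 in MDI (log2 fold change -0.27, SE 0.06, adjusted p = 0.0122), and leaving out MDI 2 ended the call (adjusted p = 0.0860).

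Apart from Fdps and Msmo1, none of the enzymes on the route to cholesterol that rose in OA_T0 vs OA passed in OA vs MDI. The 95% interval lay below 0 for Mvk (-0.45 to -0.02, adjusted p = 0.184), Lss (-0.46 to -0.03) and Dhcr7 (-0.58 to -0.07, adjusted p = 0.124). It included 0 for the rest, of which Idi1, Hmgcs1 and Fdft1 lay closest to 0. Idi1 averaged 830.2 ± 48.5 in OA and 830.8 ± 142 in MDI (95% interval -0.26 to 0.29). Hmgcs1 averaged 2167 ± 66.3 in OA and 2198 ± 331 in MDI (95% interval -0.28 to 0.26), and Fdft1 953 ± 93.2 in OA and 960.1 ± 145 in MDI (95% interval -0.23 to 0.22). Lss averaged 726 ± 12.3 in OA and 863 ± 90.5 in MDI, without overlap (log2 fold change -0.24, adjusted p = 0.170). Lipa lay at 2103, 1982 and 1980.0 in OA, against 1723, 1823 and 1883 in MDI, above in every library but without passing (log2 fold change 0.16, adjusted p = 0.134). Stard4 averaged 1171 ± 28.6 in OA and 1173 ± 212 in MDI (adjusted p = 0.970). Ggps1 (log2 fold change -0.20, adjusted p = 0.132) and Npc1 (-0.15, adjusted p = 0.230) were lower in OA without overlap but did not pass.

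The comparison of OA_T0 with MDI sets both agents together against the vehicle. It shares its libraries with the comparisons above and is not independent of them. Of 30 genes, 18 were higher and 1 was lower, where 1.25% of all tested genes were higher and 1.36% lower (2.61% in either direction). Libraries did not overlap for 21 higher and 2 lower members, against 13.3% and 10.2% of all tested genes. The 18 comprised 16 of the 19 enzymes, with Scarb1 and Stard4. The median log2 fold change of the 19 enzymes was 0.96, against 0.02 over all tested genes. By at least 2-fold, 7 of the 19 were higher, against 23 of all 15002 tested genes. Idi1 had 2164, 2862 and 1989 in OA_T0, against 675, 864 and 953 in MDI (2.81-fold, adjusted p = 6.71e-06). Fdps averaged 1796 ± 247 in OA_T0 and 626 ± 78.2 in MDI (2.86-fold, adjusted p = 1.87e-06), and Msmo1 3392 ± 649 in OA_T0 and 1198 ± 224 in MDI (2.83-fold, adjusted p = 6.48e-06). The enzymes that did not pass were Pmvk (adjusted p = 0.0604), Tm7sf2 (0.0927) and Lbr (0.165), all 3 above MDI without overlap. Pmvk passed without MDI 3 (adjusted p = 0.0267) or OA 3 (0.0490), and Tm7sf2 without OA 3 (0.0270) or in a fit of only the 2 groups (0.0262).

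Outside the route, Stard4 averaged 1922 ± 448 in OA_T0 and 1173 ± 212 in MDI (log2 fold change 0.70, adjusted p = 0.0117). It no longer passed on leaving out MDI 1 (adjusted p = 0.0804) or MDI 2 (0.0630), with robust variances (0.0922) and with no filter (0.126). Scarb1 averaged 1225 ± 58.7 in OA_T0 and 919.9 ± 102 in MDI (log2 fold change 0.42, adjusted p = 0.0138). It did not pass without MDI 1 (0.0784), MDI 2 (0.0521) or OA_T0 1 (0.110), or with no filter (0.0900). Ebp, at 978 ± 40.5 in OA_T0 and 751 ± 76.9 in MDI (adjusted p = 0.0287), did not pass without MDI 1 (0.148), MDI 2 (0.0899), OA_T0 1 (0.109) or OA_T0 2 (0.0784), or with no filter (0.126). Soat1 was the member that fell, to 1770.3, 1763 and 1661 in OA_T0, against 2023, 2165 and 2044 in MDI (log2 fold change -0.26, SE 0.06, adjusted p = 0.0277). It no longer passed on leaving out MDI 1 (0.0715), MDI 2 (0.157), OA_T0 1 (0.107) or OA_T0 3 (0.0779), without both OA 1 and OA_T0 3 (0.117), and with no filter (0.0775). Pdss1 averaged 486 ± 38.6 in OA_T0 and 519 ± 7.25 in MDI (adjusted p = 0.572), and Lipa 1615 ± 66.5 in OA_T0 and 1809.8 ± 80.5 in MDI, without overlap (adjusted p = 0.168).

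Within a group the enzymes varied together from library to library. In OA_T0, replicate 2 was the highest library for 18 of the 19 enzymes and replicate 3 the lowest for 16, with median log2 differences from the group mean of 0.16 and -0.16. Over all tested genes replicate 2 was the highest OA_T0 library for 40.5% and replicate 3 the lowest for 43.9%. In MDI, replicate 3 was the highest for 17 of 19 (48.1% of all genes) and replicate 1 the lowest for 18 of 19 (51.3% of all genes), at medians of 0.19 and -0.20. In OA no library led: replicates 1, 2 and 3 were the highest for 7, 4 and 8 of the enzymes. The summed normalised counts of the 19 enzymes were 36734, 43421 and 33849 in OA_T0, 18071, 17734 and 18309 in OA, and 16928, 20033 and 21473 in MDI. OA_T0 3 had the smallest estimated depth (17.98 M fragments) and MDI 1 the largest (59.9 M). OA_T0 3 also had the highest summed value of 68 histone genes, 20049 normalised counts, against 13353 to 16316 in the other libraries. The part of depth or of histone signal in these differences was not tested. The OA_T0 and OA sums of the 19 enzymes did not overlap in any library.

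**Figure D4:**
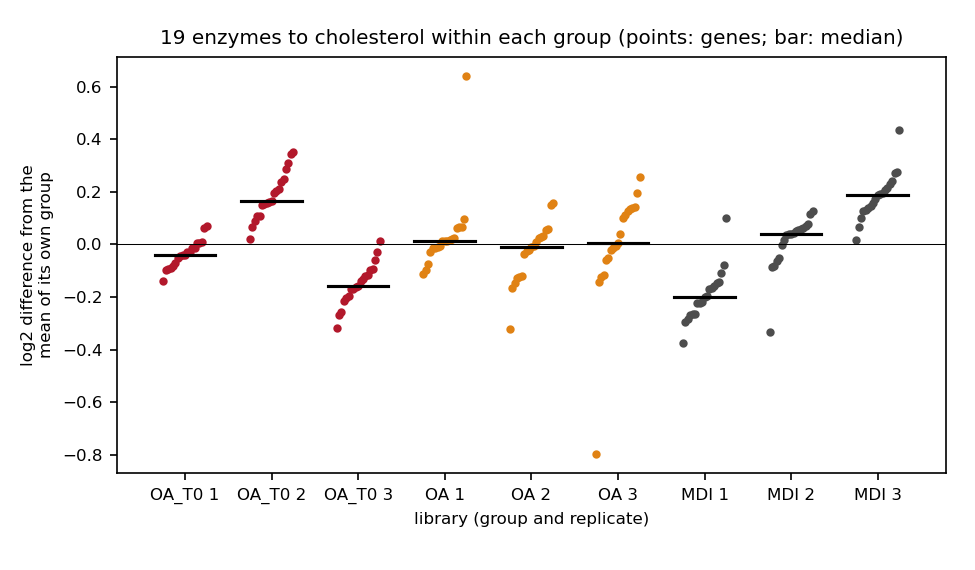
Each point is 1 of the 19 enzymes to cholesterol, drawn as its log2 difference (vertical axis) from the mean of its own group in each library (horizontal axis); the bar is the median. The medians stand at 0.16 in OA_T0 2, -0.16 in OA_T0 3, -0.20 in MDI 1 and 0.19 in MDI 3, and near 0 in the OA libraries; the far points of OA replicates 1 and 3 are Tm7sf2.

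Some of these genes lie over other genes in the annotation, and the counting's use of strand is not stated. In GENCODE M21, 11 of the 31 share exon bases with another gene, and for 7 the other gene was itself tested. Tm7sf2 shares bases on the same strand with Vps51, which averaged 621 ± 41.9 in OA_T0 and 624 ± 51.5 in OA (log2 fold change -0.01, adjusted p = 0.971). Opposite Hmgcs1 lies Gm48342, which averaged 63.3 ± 9.92 in OA_T0 and 26.4 ± 8.42 in OA (log2 fold change 1.26, adjusted p = 0.0144); without strand, its reads and those of Hmgcs1 cannot be told apart. Ctsb, opposite Fdft1, had a log2 fold change of -0.26 in OA_T0 vs OA (adjusted p = 0.0113), and the genes opposite Cyp51, Ggps1, Pdss1 and Npc1 (Akap9, Arid4b, Abi1 and Rmc1) did not pass in that comparison.

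The control system around the enzymes moved in part. In a list of 7 genes of SREBP control, 2 were higher and 0 lower in OA_T0 than in OA, against 8.27% and 6.84% of all tested genes. Insig1, which retains SREBPs in the endoplasmic reticulum and is itself a known target of theirs, had 2289, 2808 and 2011 in OA_T0, against 876, 883 and 861 in OA (log2 fold change 1.43, adjusted p = 1.14e-06). Srebf2, which encodes SREBP2, had 3599.6, 4285 and 3528 in OA_T0, against 2202, 1988 and 2335 in OA (log2 fold change 0.80, adjusted p = 2.72e-05). The other 5 of the list did not pass. At an unadjusted p below 0.05 limma gave 3 of the 7 higher and 2 lower, against 15.6% and 14.3% of all tested genes. In OA vs MDI none of the 7 passed by limma, and 2 were higher at an unadjusted p below 0.05, against 11.1% of all tested genes.

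Of 6 tested genes in a list of further pathway enzymes, 3 were higher and 1 was lower in OA_T0 than in OA, against 8.27% and 6.84% of all tested genes. Among those higher was Erg28, a scaffold that holds the demethylating enzymes together, at 694 ± 49.0 in OA_T0 and 506 ± 4.53 in OA (log2 fold change 0.45, adjusted p = 0.00156).

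Of 19 tested genes in a list of other uptake, export and transport genes, 6 were higher and 3 lower in OA_T0 than in OA. The shares over all tested genes were 8.27% and 6.84%. Abca1, the cholesterol exporter at the cell surface, averaged 7341 ± 383 in OA_T0 and 1101 ± 94.3 in OA (log2 fold change 2.74, adjusted p = 5.56e-12). Mylip, a ubiquitin ligase that degrades lipoprotein receptors, averaged 1378 ± 124 in OA_T0 and 430.0 ± 25.7 in OA (log2 fold change 1.68, adjusted p = 1.06e-08). Gramd1b, which carries cholesterol from the plasma membrane to the endoplasmic reticulum, had 1069.8, 972 and 1160.2 in OA_T0, against 483, 491 and 461 in OA (log2 fold change 1.15, adjusted p = 2.49e-07). In OA vs MDI 1 gene of this list was higher and 1 was lower, against 3.43% and 3.36% of all tested genes. The higher gene was the fatty acid transporter Cd36, and the lower was Stard5, a sterol carrier related to Stard4. Stard5 had 526, 471 and 477 in OA, against 748, 704 and 653 in MDI (log2 fold change -0.51, adjusted p = 0.00222). Both genes moved the other way in OA_T0 vs OA, which shares the OA libraries, so these moves are not independent. Stard5 averaged 703 ± 60.4 in OA_T0 (log2 fold change against OA 0.51, adjusted p = 0.00107). Cd36 averaged 27.7 ± 10.9 in OA_T0, 321 ± 65.0 in OA and 20.3 ± 5.11 in MDI (OA_T0 vs OA -3.54 on the log2 scale, adjusted p = 6.33e-07).

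In a list of 7 tested ester and oxysterol enzymes, 0 were higher and 2 lower in OA_T0 than in OA, while OA vs MDI gave 3 higher and 0 lower. Over all tested genes, 8.27% were higher and 6.84% lower in OA_T0 vs OA, and 3.43% and 3.36% in OA vs MDI. Cyp7b1, which hydroxylates oxysterols, had 464, 507 and 449.9 in OA_T0, against 850.1, 819.8 and 742 in OA (log2 fold change -0.76, adjusted p = 2.58e-05). It had 850.1, 819.8 and 742 in OA, against 679.6, 587 and 639 in MDI (log2 fold change 0.34, adjusted p = 0.0254), a call lost without MDI 2 (adjusted p = 0.147), OA 1 (0.117) or OA 2 (0.0777), without both OA 1 and OA_T0 3 (0.0972), with equal totals (0.0549) and with no filter (0.0672). Lipe, hormone-sensitive lipase, which also cleaves cholesterol esters, averaged 119 ± 24.2 in OA_T0, 347 ± 23.6 in OA and 122 ± 27.9 in MDI. By limma its log2 fold change was -1.55 in OA_T0 vs OA (adjusted p = 3.52e-05) and 1.52 in OA vs MDI (adjusted p = 9.60e-05). In OA_T0 vs MDI it was -0.03 (adjusted p = 0.950). Of 13 genes on the isoprenoid side branches (prenylation, dolichol and coenzyme Q), 0 passed in either direction in any of the 3 comparisons by limma. At an unadjusted p below 0.05, 3 of them were higher and 1 lower in OA_T0 vs OA, against 15.6% and 14.3% of all tested genes. The same threshold gave 0 higher and 2 lower in OA vs MDI, against 11.1% and 10.1%. In OA_T0 vs MDI it gave 1 and 1, against 10.6% and 7.87%.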

How the data were processed

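Poly(A) RNA of 9 libraries was sequenced with strand-marked kits, per the labels. The deposited values are a signal per gene, named normalised counts by the authors; they are not whole and carry no length correction, and their scaling is not given in the sources used here. The submitters' processing notes name CASAVA 1.8.2, TopHat, HTSeq, DESeq2 and the build mm9 without roles. Low values lay on multiples of a step that differs by library, and 63.1% to 68.9% of values between 5 and 50 steps were whole within 0.05, so whole reads were not recovered. The total divided by the step gave the estimated depth. Values were tested as log2(value + 1) for the 15002 genes with a mean of at least 10, with limma 3.58.1 in R 4.3.3, an intensity trend and 1 spread for the 3 groups. Two-sided p-values were adjusted by Benjamini-Hochberg within each of 3 comparisons. The code was tested on simulated data.

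The members and lists were chosen with earlier results of these data known. All 31 members are named, and from 5 companion lists at most the 4 passing genes with the smallest adjusted p in OA_T0 vs OA and the 2 in OA vs MDI. Some pathway genes are not reported here. Promoters were read from RefSeq (GRCm38.p6), overlaps and lengths from GENCODE M21, which is of a later build than mm9. Alternatives were a replicate block, pseudocounts of 0.5 and 5, no filter or a minimum of 50, quantile normalisation, equal totals, fits of only the groups compared, robust variances, and libraries left out.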

Additional observations from a re-analysis of the deposited data

How the results depend on the processing

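The direction of every member called in a comparison stayed the same under each of the 19 alternatives that gave it a value (18 for Tm7sf2, which a minimum mean of 50 leaves out), and the calls that ended are given with their genes above. With no filter on low values, OA_T0 vs OA gave 620 genes lower, OA vs MDI 233 higher and 234 lower with 2 members lower, and OA_T0 vs MDI 72 higher and 38 lower with 0 members lower. More genes are tested in that setting. Robust variances gave 132 genes lower in OA_T0 vs MDI, and the cause was not tested. Leaving out libraries (1 at a time, or both OA replicate 1 and OA_T0 replicate 3) gave 524 to 1443 genes higher and 402 to 1239 lower in OA_T0 vs OA. The same gave 211 to 658 higher and 155 to 639 lower in OA vs MDI, with 0 to 4 members lower. In OA_T0 vs MDI it gave 66 to 284 higher and 44 to 247 lower, with 0 to 1 members lower.

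Changes of sign occurred in log2 fold changes that passed in no fit, the largest in size being Tm7sf2 in OA vs MDI (-0.31, and 0.09351 without OA replicate 3). In OA_T0 vs OA, Npc2 was 0.00912 after quantile normalisation, and Soat1 was -0.00913 after quantile normalisation and -0.00949 with equal totals. In OA vs MDI, equal totals gave -0.00473 for Idi1, -0.01345 for Lbr and -0.00266 for Stard4, and quantile normalisation gave -0.0202 for Lbr. In OA_T0 vs MDI, quantile normalisation gave -0.00506 for Stard3. Over the main fit and all alternatives, OA_T0 vs OA ran from -0.0022 to 0.1182 for Ggps1 and from -0.00085 to 0.1078 for Dhdds. It ran from -0.06264 to 0.03871 for Npc2, -0.14045 to 0.03328 for Stard3 and -0.02239 to 0.04815 for Soat1. In OA vs MDI the ranges were -0.1405 to 0.06378 for Hmgcs1, -0.2658 to 0.14012 for Mvd and -0.1302 to 0.11839 for Idi1. Those of Dhdds, Fdft1 and Cyp51 were -0.01409 to 0.07775, -0.13584 to 0.0701 and -0.16886 to 0.00864. Tm7sf2 ran from -0.62562 to 0.09351, Lbr from -0.03611 to 0.03427 and Nsdhl from -0.25054 to 0.01763. Hsd17b7 ran from -0.16055 to 0.03838, Scarb1 from -0.00768 to 0.14964, Stard3 from -0.01515 to 0.17676 and Stard4 from -0.11808 to 0.14424. Stard3 in OA_T0 vs MDI ran from -0.06459 to 0.11075.

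The replicate numbers are not known to pair the libraries: same-numbered libraries had correlations of -0.26 to 0.26 between their deviations, and other pairs -0.23 to 0.25. With the replicate block, members higher and lower numbered 20 and 1 in OA_T0 vs OA, 0 and 3 in OA vs MDI, and 18 and 1 in OA_T0 vs MDI. Genes higher and lower under the block numbered 1095 and 916 in OA_T0 vs OA, 433 and 417 in OA vs MDI, and 156 and 183 in OA_T0 vs MDI. Tm7sf2 was the least abundant tested member, and any level of Cyp27a1 lay below the floor of 3 fragments. The part of depth in their values was not tested.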
